A study of Mus musculus with 15 samples.

Results

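The genes described here handle iron and haem. Hmox1, Blvra and Blvrb act in haem breakdown, Cd163 in haemoglobin uptake, and Fth1 and Ftl1 in iron storage. Slc40a1 acts in iron export, Tfrc and Slc11a2 in iron import, and Slc11a1 in metal transport across the phagosome membrane. These genes are 10 of the 33223 listed in each count table and were matched by symbol to mouse Ensembl identifiers on GRCm38. They were picked by name for their role, with the knowledge that genes of this kind had been described as lower in the CD45 fraction of knockout mice. Knockout against wild type values within that fraction are therefore given as a description with no test.

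Bulk RNA was sequenced from mouse cortex 1 day after a moderate controlled cortical impact, a device-driven blow to the right parietal cortex that models traumatic brain injury. All mice carried EphA4f/f, a floxed Epha4 gene, and all were injured. Wild type (WT) mice were EphA4f/f-WT, and knockout (KO) mice were EphA4f/f-VeCadCreERT2, in which the VE-cadherin promoter drives an inducible Cre in endothelial cells. Beads against CD45, a leukocyte surface protein, and CD31, an endothelial one, were applied to the dissociated ipsilateral cortex. One set of libraries holds the CD45 cells, and the other holds the flow-through, the remaining cortical cells. The age, sex and number of animals per library is not given in the sources used here, and libraries of both fractions may share animals.

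The flow-through was compared over 4 WT and 3 KO libraries, and the CD45 fraction over 3 WT and 4 KO libraries. A further library carries the label of flow-through WT (replicate 5) but its column is in the CD45 count table. It had 905.8 CPM of Ptprc, the gene of CD45, so its label and its content disagree and it was left out. CPM is the count of a gene per 1000000 counts of its library. Totals per library ran from 19204814 to 27270907 counts (flow-through, n = 7) and from 11574414 to 31337948 counts (CD45, n = 7). Ptprc lay at 0.66 to 1.22 CPM in the flow-through and at 805 to 1043 CPM in CD45, as the labels of those 14 libraries have it. Epha4, the targeted gene, lay at 38.5 to 43.0 CPM in flow-through WT and at 36.03 to 42.24 CPM in flow-through KO libraries, and at 2.699 to 2.923 CPM in CD45 WT and 1.69 to 3.54 CPM in CD45 KO libraries. The genotypes overlapped in both fractions. Endothelial cells, the type in which Cre acts, bind CD31 beads. Summed CPM of 8 endothelial markers was 231.8 to 359.4 in the flow-through and 641.9 to 771.5 in CD45. The 8 include Slc2a1, whose pattern over the libraries was close to that of Fth1, a gene higher in CD45. Values of the single markers are not given, so the sum does not show which fraction held more endothelial cells.

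Haem released from haemoglobin is opened by haem oxygenase, which frees iron and yields biliverdin. Biliverdin reductases turn biliverdin into bilirubin, and the iron is stored in ferritin shells or leaves the cell through ferroportin. After bleeding into the brain, macrophages take up red cells and haemoglobin and meet a large load of haem iron. When iron is scarce, iron regulatory proteins bind a hairpin in messenger RNA, the iron-responsive element (IRE). Bound near the start of an mRNA it blocks translation, as for ferritin and ferroportin, and bound in the 3′ untranslated region (UTR) it protects the mRNA from decay, as for the transferrin receptor.

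The IREs are shown because they set Fth1, Ftl1 and Slc40a1, which carry one at the 5′ end, apart from Tfrc, which carries several in its 3′ UTR. A pattern of CNNNNNCAGTGN with 5 paired stem bases was searched on the transcript strand of GENCODE M21 coding transcripts, leaving out chromosomes Y and M. The last base of the pattern could be any but G, and G could pair with T in the stem. The pattern was present in the 5′ UTR of 23 of 21047 genes (0.109%) and the 3′ UTR of 110 of 21034 genes (0.523%). Among the members it was found in the 5′ UTRs of Fth1, Ftl1 and Slc40a1 and in the 3′ UTR of Tfrc. An element that departs from this pattern would be missed, so a member without the pattern is not shown to lack an IRE. Among the other iron and haem genes it was found in the 5′ UTR of Alas2. Each sequence is 30 bases of GRCm38 on the gene's strand, 5′ to 3′, with the 6 loop bases in capitals. The Fth1 site is at chr19:9982731-9982760 (plus strand), the Ftl1 site at chr7:45459779-45459808 (minus strand) and the Slc40a1 site at chr1:45925465-45925494 (minus strand). The Tfrc sites a to d lie on the plus strand in exon 19, at chr16:32631218-32631247, chr16:32631597-32631626, chr16:32631662-32631691 and chr16:32631709-32631738. The 3 sites at the 5′ end and the 4 of Tfrc share the loop letters up to its last base.
Fth1: tttcctgcttcaaCAGTGCttgaacggaac
Ftl1: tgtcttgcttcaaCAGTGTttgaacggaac
Slc40a1: ccaacttcagctaCAGTGTtagctaagttt
Tfrc a: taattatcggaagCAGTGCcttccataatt
Tfrc b: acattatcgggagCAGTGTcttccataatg
Tfrc c: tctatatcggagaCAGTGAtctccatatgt
Tfrc d: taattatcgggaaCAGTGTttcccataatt

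The fractions differed for nearly all members. Of the 10, 8 were higher in CD45 under every scaling used, Tfrc was lower, and Slc11a2 changed direction with the scaling. All 10 passed the test of edgeR at an adjusted p under 0.05, where the background was high: 86.1% of the 18098 genes tested were called, 41.4% higher and 44.7% lower in CD45. The libraries of both fractions did not overlap for 9 of 10 members. The share of all genes without such overlap was not counted, so nothing particular to the members is read from this. Fold changes below are log2 values from edgeR with TMM scaling, which sets the typical gene to no change. With library totals in place of TMM factors the median of all genes moved on the log2 scale from -0.05 to -0.58, and each member's value dropped by a like amount. Values of the members are therefore given both as CPM, which rest on library totals, and as TMM-scaled fold changes. In bulk samples a lower share of cells of a type and less RNA per cell cannot be told apart.

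**Figure D1:**
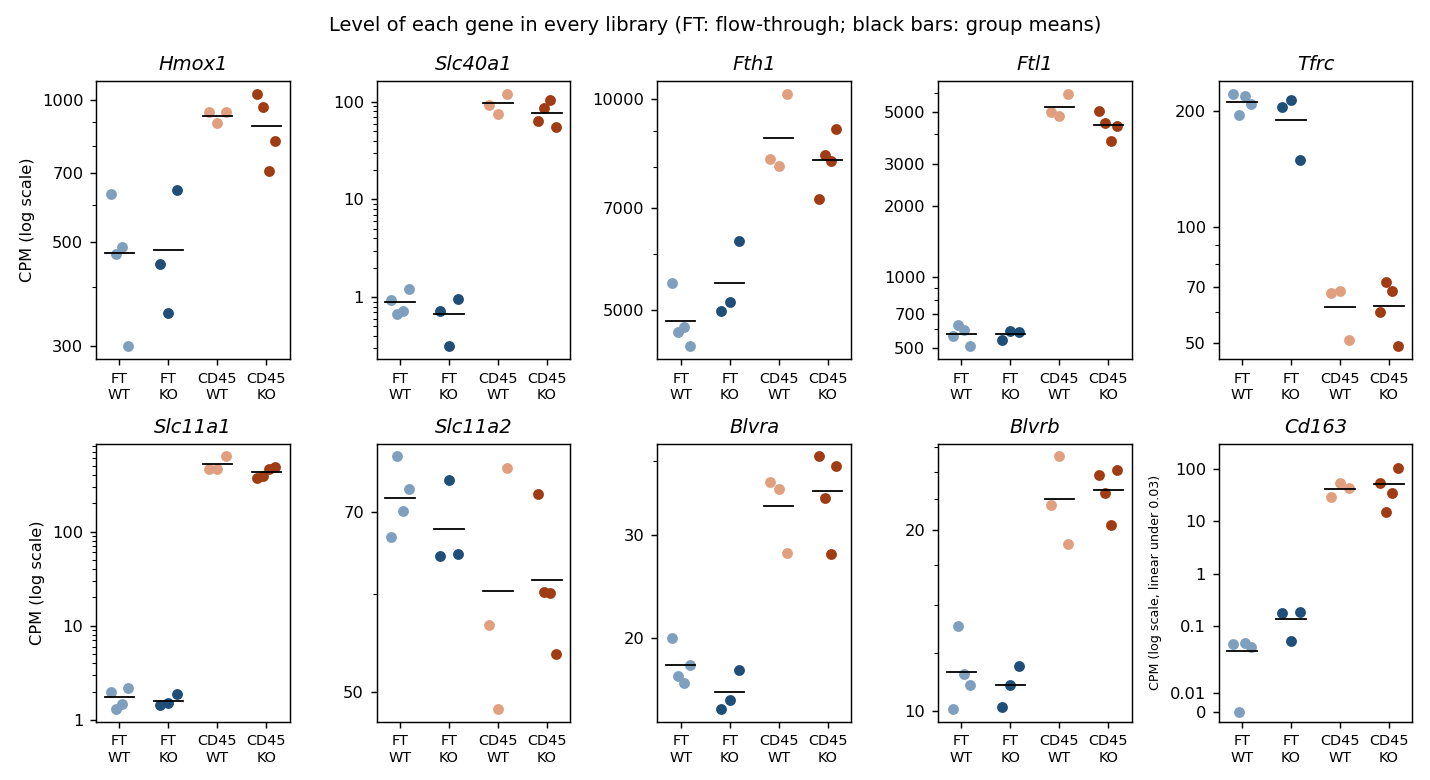
Level of each of the 10 genes in CPM (log axes, Cd163 linear under 0.03) in the 14 libraries, as points by fraction and genotype, with black bars for group means. CD45 and flow-through points do not overlap for any gene but Slc11a2, while WT and KO points overlap within each fraction except for Cd163 in the flow-through, which had 0 to 5 counts per library.

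Hmox1 (chromosome 8, 75093621 to 75100589) encodes the inducible haem oxygenase. In CD45 WT libraries it stood at 945.6, 895.0 and 945.6 CPM, and in CD45 KO libraries at 1034, 968.0, 707.9 and 818.5 CPM. In flow-through WT libraries it stood at 631.9, 471.8, 486.0 and 299.1 CPM, and in flow-through KO libraries at 448.0, 351.7 and 643.1 CPM. Every CD45 library was above every flow-through library, with a mean of 902.0 CPM ± 108.2 (SD, n = 7) against 475.9 CPM ± 129.0 (SD, n = 7). The log2 fold change was 1.45 (SE 0.16, edgeR adjusted p = 6.07e-07), and 0.93 with library totals. Hmox2, the constitutive haem oxygenase, chosen for naming after its values were seen, was also higher in CD45, with 97.7 CPM ± 6.94 against 52.1 CPM ± 5.85 (SD, n = 7 each) and a log2 fold change that came to 1.42 (SE 0.07, edgeR adjusted p = 1.89e-11).

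Hmox1 was among the more variable genes of the flow-through. Its coefficient of variation over the 7 libraries was 27.1%, against a median of 9.72% and a 95th percentile of 22.3% over the 10570 genes with a mean of at least 10 CPM there. Both genotypes spanned most of the range, so the spread did not follow genotype. The libraries with the highest Hmox1, KO replicate 3 and WT replicate 1, also had the highest summed oligodendrocyte markers (39350 and 34200 CPM), and the library with the lowest Hmox1, WT replicate 4, had the lowest sum (24160 CPM). Astrocyte markers had the same libraries at the ends, with 8839 and 8944 CPM in the former and 7319 CPM, the lowest, in the latter. Endothelial markers were also highest in KO replicate 3 (359.4 CPM) and lowest in WT replicate 4 (231.8 CPM), with 276.6 CPM in WT replicate 1. Homeostatic microglia markers were alike in KO replicate 3 (169.2 CPM) and WT replicate 4 (168.4 CPM), with 151.0 CPM in WT replicate 1. KO replicate 2, next lowest in Hmox1 (351.7 CPM), had an oligodendrocyte sum of 31810 CPM. Neuron markers were 607.6 CPM in KO replicate 3, 703.6 CPM in WT replicate 1 and 580.5 CPM in WT replicate 4, within a range of 519.4 to 791.2 CPM. Border-associated macrophage markers were lowest in KO replicate 3 (12.65 CPM), with 15.41 CPM in WT replicate 1 and 18.67 CPM in WT replicate 4. Not every marker list is described here. Markers of monocytes and macrophages were lowest in WT replicate 1 (273.5 CPM) and highest in WT replicate 4 (457.3 CPM). KO replicate 3, the library highest in Hmox1, lay between them at 332.0 CPM. Summed red cell markers, most of them globins, were 10440 and 10360 CPM in the libraries highest in Hmox1 and 11380 CPM in the lowest, within a range up to 28620 CPM. The part of any of these in the spread of Hmox1 was not tested. In CD45 its coefficient of variation was 11.99%, near the median of 10.97% over 8718 genes.

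The biliverdin reductases were measured at lower levels. Blvra (chromosome 2, 127070665 to 127097084) reduces biliverdin to bilirubin in adult tissue, and Blvrb (chromosome 7, 27447978 to 27466144) acts as a biliverdin and flavin reductase. Blvra was at 27.8 to 40.8 CPM in CD45 and at 15.2 to 20.1 CPM in the flow-through, and the log2 fold change was 1.55 (SE 0.09, edgeR adjusted p = 1.498e-10). Blvrb was at 18.9 to 26.5 CPM in CD45 and at 10.1 to 13.8 CPM in the flow-through, and the log2 fold change was 1.54 (SE 0.10, edgeR adjusted p = 1.77e-10). All 3 genes of haem breakdown thus moved in the same direction between the fractions. With library totals the log2 fold changes of both reductases were 1.02.

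Cd163 (chromosome 6, 124304656 to 124330527), the haemoglobin-haptoglobin receptor of macrophages, was nearly limited to CD45. It stood at 28.6, 52.8 and 43.3 CPM in CD45 WT and at 53.3, 14.8, 34.9 and 101.5 CPM in CD45 KO libraries. The KO libraries spanned 6.88-fold, the widest span of any member within a CD45 group. The flow-through held 13 Cd163 counts in 157593872, of which 3 came from 4 WT and 10 from 3 KO libraries. The CD45 mean was 570-fold above this level, with a 95% exact Poisson interval of 333 to 1071-fold for the flow-through count, which covers counting error only. The fitted log2 fold change was 9.73 (SE 0.61, edgeR adjusted p = 2.29e-09). Summed CPM of 8 other border-associated macrophage markers was 847.9 to 1719 in CD45 and 12.7 to 23.9 in the flow-through, with none of the 8 at 0 in either. The library highest in Cd163, KO replicate 4, had a sum of 1573 CPM and the lowest, KO replicate 2, had 1295 CPM, and the part of these cells in the spread was not tested. Hp, the gene of haptoglobin, which carries haemoglobin to this receptor, was at 581.7 CPM ± 72.4 in CD45 and at 3.35 CPM ± 0.62 in the flow-through (SD, n = 7 each), and the log2 fold change was 7.998 (SE 0.14, edgeR adjusted p = 4.37e-17). Summed CPM of 8 neutrophil markers was 5687 to 9866 in CD45 and 7.76 to 14.7 in the flow-through, where Ly6g was at 0 in both genotypes, and their part in the Hp level was not tested.

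Ferritin mRNAs were the most abundant of the set. Fth1 (chromosome 19, 9980598 to 9985098) encodes the heavy chain, which oxidises iron, and Ftl1 (chromosome 7, 45457944 to 45459884) the light chain, which supports the mineral core. Fth1 stood at 8221, 8029 and 10180 CPM in CD45 WT and at 7209, 8309, 8145 and 9052 CPM in CD45 KO libraries. In the flow-through it stood at 5454, 4641, 4730 and 4433 CPM in WT and at 4987, 5127 and 6265 CPM in KO libraries. The fractions did not overlap, and the log2 fold change was 1.26 (SE 0.10, edgeR adjusted p = 4.21e-09).

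Ftl1 differed far more between the fractions. It stood at 4992, 4794 and 5950 CPM in CD45 WT and at 5019, 4464, 3766 and 4332 CPM in CD45 KO libraries. In the flow-through it stood at 563.2, 624.9, 599.1 and 508.6 CPM in WT and at 543.6, 592.7 and 587.8 CPM in KO libraries. The CD45 mean was 8.29-fold the flow-through mean in CPM, against 1.66-fold for Fth1, and the log2 fold change was 3.59 (SE 0.10, edgeR adjusted p = 4.01e-15). On the scale of CPM per kilobase of the principal coding transcript, Fth1 ranked 1 and Ftl1 ranked 3 among all genes in CD45, and they ranked 4 and 55 in the flow-through. Hmox1 ranked 84 and 160 on the same scale, and all of these ranks rest on the transcript lengths used.

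The balance of the mRNAs of the ferritin chains therefore differed between the fractions, while protein was not measured. The ratio of Fth1 to Ftl1 level per kilobase was 9.26 ± 1.13 (SD, n = 7) in the flow-through, with a range of 7.74 to 11.1. In CD45 it was 1.87 ± 0.27 (SD, n = 7), with a range of 1.497 to 2.254. The ratio is taken within a library, so the scaling between libraries does not enter it. The size of the ratio rests on the transcript lengths used, while the contrast between fractions does not. With all annotated exons, which include retained introns of Fth1, the CD45 WT log2 ratio was -0.63 in place of 0.81. Whether the heavy chain mRNA is the more abundant in CD45 thus depends on this choice. In the flow-through the log2 ratio was higher by 0.17 in KO than in WT libraries (exact two-sided permutation test over 35 splits, p = 0.257, the smallest possible p being 0.0286). Retrocopies can share reads with both genes. The copies listed in the tables held at most 0.0348% of the Fth1 count and 0.278% of the Ftl1 count in any library. Exons of Ftl1 overlap those of other annotated genes, Gm10252 and Gm22133, over 8.13% of their length on the same strand and 26.5% on the opposite strand, and how such reads were counted is not given in the sources used here.

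**Figure D2:**
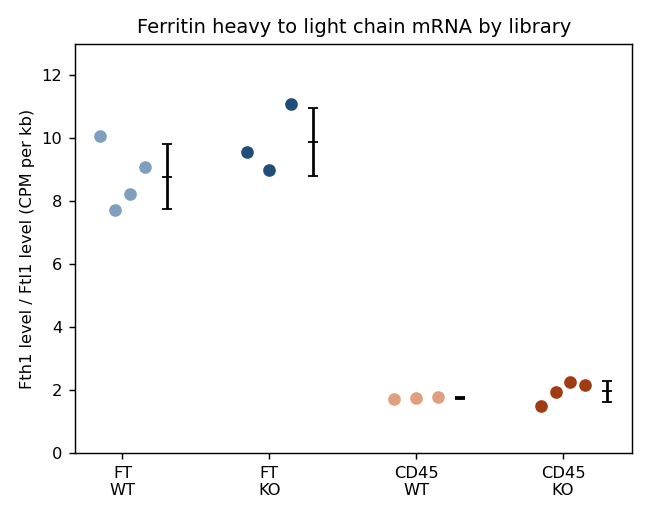
Ratio of Fth1 to Ftl1 level (CPM per kilobase of principal transcript) in each of the 14 libraries, with mean and SD beside each group. The 7 flow-through libraries lie between 7.74 and 11.1, and the 7 CD45 libraries between 1.497 and 2.254.

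Slc40a1 (chromosome 1, 45908068 to 45926523) encodes ferroportin, the iron exporter of vertebrate cells. It stood at 92.4, 75.4 and 121.3 CPM in CD45 WT and at 63.7, 86.0, 103.9 and 55.2 CPM in CD45 KO libraries. In the flow-through it lay between 0.312 and 1.22 CPM, from 128 counts over 7 libraries. The log2 fold change was 7.29 (SE 0.24, edgeR adjusted p = 2.65e-13), and every CD45 library was above every flow-through library.

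The importers and the metal transporter of the phagosome did not all go one way. Tfrc (chromosome 16, 32608920 to 32632794), the transferrin receptor that brings iron into most cells, was the member that was lower in CD45. It stood at 222.0, 195.6, 219.2 and 208.7 CPM in flow-through WT and at 205.0, 214.0 and 149.5 CPM in flow-through KO libraries. In CD45 it stood at 67.2, 68.2 and 51.0 CPM in WT and at 60.3, 71.9, 68.3 and 49.0 CPM in KO libraries. The fractions did not overlap, and the log2 fold change was -1.16 (SE 0.10, edgeR adjusted p = 1.80e-08). KO replicate 3 was the lowest flow-through library in Tfrc and the highest in Fth1 and Hmox1. Genes that hold the 5′ pattern did not all go one way between the fractions: Fth1, Ftl1 and Slc40a1 were higher in CD45, Alas2, with the same 5′ pattern, was lower (-2.86 on the log2 scale, SE 0.29), and members without the pattern were also mostly higher.

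Slc11a1 (chromosome 1, 74375195 to 74386062) encodes Nramp1, a metal transporter of the phagosome membrane in macrophages and neutrophils. It was at 368.1 to 626.8 CPM in CD45 and at 1.31 to 2.20 CPM in the flow-through. The log2 fold change was 8.64 (SE 0.16, edgeR adjusted p = 5.81e-17), the lowest adjusted p among the members. Summed CPM of 8 markers of infiltrating monocytes and macrophages was 9175 to 14030 in CD45 and 273.5 to 457.3 in the flow-through, where Ly6c2 and Ms4a4c were at 0 in both genotypes. The part of these cells in the Slc11a1 level was not tested.

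Slc11a2 (chromosome 15, 100387898 to 100425072) encodes DMT1, the related transporter of the endosome and the gut. It was at 48.4 to 75.9 CPM in CD45 and at 64.5 to 77.6 CPM in the flow-through, so the fractions overlapped and the CPM mean was lower in CD45 (61.0 CPM ± 9.85 against 70.1 CPM ± 5.08, SD, n = 7 each). With TMM scaling the log2 fold change was 0.34 (SE 0.10, edgeR adjusted p = 0.00391). With library totals it was -0.19 (edgeR adjusted p = 0.0636), and with upper-quartile scaling 0.08 (edgeR adjusted p = 0.418), so no direction can be given for this gene. Of its exon length, 6.33% is overlapped on the opposite strand by Gm5475.

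On the per-kilobase scale the order of means in CD45 was Fth1 (9096), Ftl1 (4917), Hmox1 (574.9), Slc11a1 (200.1), Blvra (29.9), Slc40a1 (25.3), Blvrb (22.3), Slc11a2 (20.2), Tfrc (12.7) and Cd163 (10.7). The libraries of neighbours in that order overlapped from Blvra to Slc11a2 and between Tfrc and Cd163. In the flow-through the order was Fth1 (5480), Ftl1 (593.2), Hmox1 (303.3), Tfrc (41.3), Slc11a2 (23.2), Blvra (14.9), Blvrb (11.1), Slc11a1 (0.727), Slc40a1 (0.235) and Cd163 (0.0179). Of the neighbours in this order, only Blvra and Blvrb overlapped. Both orders and their overlaps rest on the principal transcript lengths used. All annotated exons lengthen the genes by unlike amounts, from 1569 to 1751 bases for Hmox1 and from 929 to 3469 for Fth1. With those lengths genes near each other in an order may change places.

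**Figure D3:**
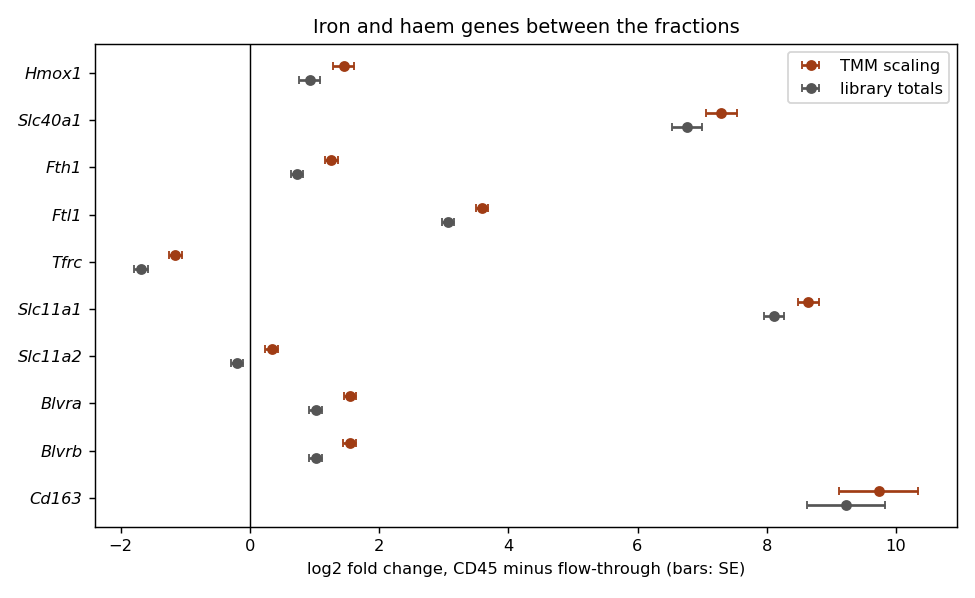
Log2 fold change of each gene between CD45 and flow-through libraries, with bars for the SE, under TMM scaling and with library totals. Slc11a2 lies at 0.34 under TMM and at -0.19 with library totals, and the sign of every other gene is the same under both.

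Other genes of iron and haem handling were described from 9 lists with 93 genes, of which 91 were in the tables and 88 were tested between fractions. Under TMM scaling 48 were called higher and 30 lower in CD45 (edgeR), and the median log2 fold change was 0.45 against -0.05 over all genes tested. With library totals 37 were called higher and 43 lower, with a median of -0.08 against -0.58 over all genes. Of all 18098 genes tested, 7492 (41.4%) were called higher and 8091 (44.7%) lower under TMM, and 5083 and 10740 with library totals. Most genes of any kind were thus called, and the counts of each list below stand against this background. The split therefore depends on the scaling, and calls with a small fold change have no fixed direction. Unless said otherwise, genes named below are those with the highest and the lowest fold change of each list, and their signs were the same under both scalings. Exons of Hmox2, Trf, Bmp6, Alas1, Alas2, Slc25a37 and Cubn overlap another annotated gene, so the values of these genes are uncertain to that extent.

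In the list of iron uptake, 4 of 12 genes were called higher and 6 lower in CD45 (4 and 7 with library totals). Ltf, lactoferrin of neutrophil granules, was at 26.5 CPM ± 12.5 in CD45 and 0.0555 CPM ± 0.0661 in the flow-through (SD, n = 7 each), and Steap2, a metalloreductase, was at 0.813 CPM ± 0.219 and 23.6 CPM ± 2.91 (log2 fold change -4.33, SE 0.15, edgeR adjusted p = 7.32e-14). Trf, transferrin itself, which oligodendrocytes make, was chosen for naming after its values were seen, and was at 351.5 CPM ± 49.9 in CD45 and 3593 CPM ± 454.3 in the flow-through. Summed oligodendrocyte markers were 366.4 to 1499 CPM in CD45 and 24160 to 39350 CPM in the flow-through, and their part in these values was not tested. In the list of export and its control, 3 of 7 genes were called higher and 4 lower (1 and 5 with library totals). Hfe, the haemochromatosis protein, had a log2 fold change of 2.703 (SE 0.11), and Bmp6, an inducer of hepcidin, one of -4.19 (SE 0.25). In the list of storage and ferritin turnover, 3 of 6 were called higher and 2 lower, and with library totals the majority turned, to 2 higher and 4 lower. Ncoa4, the ferritin autophagy receptor, which was also chosen after its values were seen, depended on the scaling: it was not called under TMM (-0.02 on the log2 scale, SE 0.06, edgeR adjusted p = 0.685) and was lower in CD45 with library totals (-0.55, edgeR adjusted p = 1.49e-07).

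Of 9 genes that control ferritin or receptor mRNA or the iron regulatory proteins, 6 were called higher in CD45 and 2 lower (4 and 3 with library totals). Zc3h12a, an RNase (regnase-1) known to cut Tfrc mRNA, was at 196.9 CPM ± 36.5 in CD45 and 13.9 CPM ± 1.60 in the flow-through (SD, n = 7 each), and the log2 fold change was 4.36 (SE 0.13, edgeR adjusted p = 1.55e-14). Cisd1, an iron-sulfur protein of the outer mitochondrial membrane, had a log2 fold change of -1.76 (SE 0.10). In haem uptake and transport 6 of 10 were called higher, led by Hp, and 3 lower (5 and 4 with library totals), of which Hpx, haemopexin, had a log2 fold change of -1.83 (SE 0.24).

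In haem synthesis 3 of 9 genes were called higher and 5 lower (2 and 7 with library totals). Alas1, the first enzyme of the pathway in most cells, was higher in CD45 (2.31 on the log2 scale, SE 0.13, edgeR adjusted p = 9.76e-11). Alas2, its erythroid form, was lower (-2.86 on the log2 scale, SE 0.29, edgeR adjusted p = 4.59e-07), and summed red cell markers, which include Alas2, were 827 to 1886 CPM in CD45 and 10360 to 28620 CPM in the flow-through, and their part in the difference was not tested. Of 10 genes of mitochondrial iron, 5 were called higher, led by Slc25a37, mitoferrin-1 (log2 fold change 2.37, SE 0.08), and 2 lower, Fdx1, a ferredoxin, being the lowest (-1.05, SE 0.12). With library totals the majority of that list turned, to 3 higher and 6 lower.

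Of 15 regulators and targets of Nrf2 and Bach1, the transcription factors that switch Hmox1 on and off, 10 were called higher and 4 lower (9 and 5 with library totals). Spic, a factor of haem-recycling macrophages, was at 3.995 CPM ± 1.21 in CD45 and 0.0182 CPM ± 0.0229 in the flow-through, and Srxn1, sulfiredoxin, was lower in CD45 (log2 fold change -0.79, SE 0.09). Both factors were higher in CD45: Nfe2l2, the gene of Nrf2, by 3.17 (SE 0.11) and Bach1 by 2.06 (SE 0.08) on the log2 scale, named after their values were seen. In the ferroptosis list 8 of 10 genes were called higher and 2 lower (7 and 2 with library totals), from Alox5 (log2 fold change 5.23, SE 0.15) to Tfam (-0.58, SE 0.07).

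**Figure D4:**
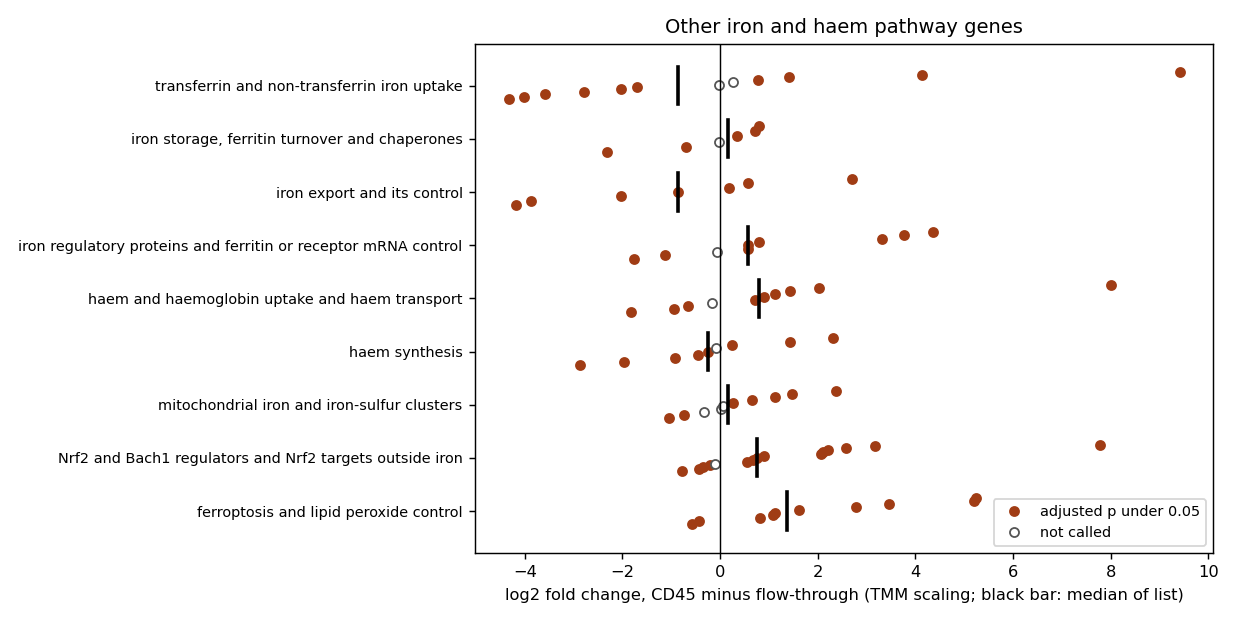
Log2 fold change between CD45 and flow-through (TMM scaling) of the 88 tested genes of 9 iron and haem lists, as filled points where the edgeR adjusted p was under 0.05 and open points otherwise, with a black bar for each list's median. The points of each list lie on both sides of 0, and 10 of the 88 are open.

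Between genotypes in the flow-through, no change was detected in the members. None of the 9 members tested was called (edgeR adjusted p from 0.616 to 0.976), against 1.57% of the 16546 genes tested, and none had an unadjusted p under 0.05 or was called by DESeq2. Cd163 had too few counts to be tested, at 0 to 1 in each WT and 1 to 5 in each KO library. WT and KO libraries overlapped for all 9, against 12% of all genes tested without overlap. The largest positive difference was that of Fth1, with a mean of 5459 CPM ± 700.9 in 3 KO libraries and 4814 CPM ± 444.1 in 4 WT libraries, as mean ± SD (log2 fold change 0.20, SE 0.13). Hmox1 differed by 0.04 with an SE of 0.30, so its spread would hide a modest difference. Ftl1 was measured more closely, with a difference of 0.03 and an SE of 0.10, and Slc40a1, at under 1 CPM on average, with -0.35 and an SE of 0.38.

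Of the other pathway genes, 0 of 85 were called by edgeR in the flow-through. An unadjusted p under 0.05 was seen for 9 of these 85 and for 1814 of all 16546 genes tested, a like share, and DESeq2 called 1, Trf, among 436 genes called in all. Among the genes with the highest and lowest fold changes were Slc22a17, the lipocalin-2 receptor, with 155.0 CPM ± 15.2 over 3 KO libraries and 125.8 CPM ± 11.5 over 4 WT libraries (SD, edgeR adjusted p = 0.169), and Bmp2, at 0.41 on the log2 scale (SE 0.16, edgeR adjusted p = 0.361). Alas2 had the lowest value of haem synthesis (-0.67, SE 0.50), with WT libraries spanning 247.7 to 801.6 CPM.

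In the CD45 fraction WT and KO libraries overlapped for every member. Of all genes fitted, the groups were without overlap for 5.09% of 15660, and the share of genes called by edgeR was 0.0% (0 genes, with 693 at an unadjusted p under 0.05 and 9 called by DESeq2). The log2 fold change was negative for 7 of 10 members and for 45.5% of all genes, with a median of -0.065 for the members and 0.020 for all genes. With library totals 5 of 10 were negative. The members were chosen with this contrast in view, so nothing is read from these counts.

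The lowest values were those of Slc40a1 (-0.35, SE 0.25), Slc11a1 (-0.31, SE 0.16) and Ftl1 (-0.29, SE 0.14). Fth1 (-0.14, SE 0.15) and Hmox1 (-0.11, SE 0.13) lay within an SE of 0, as did Tfrc (-0.02, SE 0.14), Slc11a2 (-0.0028, SE 0.16), Blvra (0.06, SE 0.14), Blvrb (0.03, SE 0.13) and Cd163 (0.28, SE 0.61). WT replicate 3 was the highest of the 7 CD45 libraries for 5 members, Fth1, Ftl1, Slc40a1, Slc11a1 and Slc11a2. The same library had the lowest summed markers of monocytes and macrophages (9175 CPM) and of border-associated macrophages (847.9 CPM), and the highest of neutrophils (9866 CPM) and oligodendrocytes (1499 CPM), and their part in its values was not tested. Without it the log2 fold changes were -0.15 for Slc40a1, -0.14 for Slc11a1, -0.18 for Ftl1 and -0.01 for Fth1. Cd163 turned to -0.31 without KO replicate 4.

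**Figure D5:**
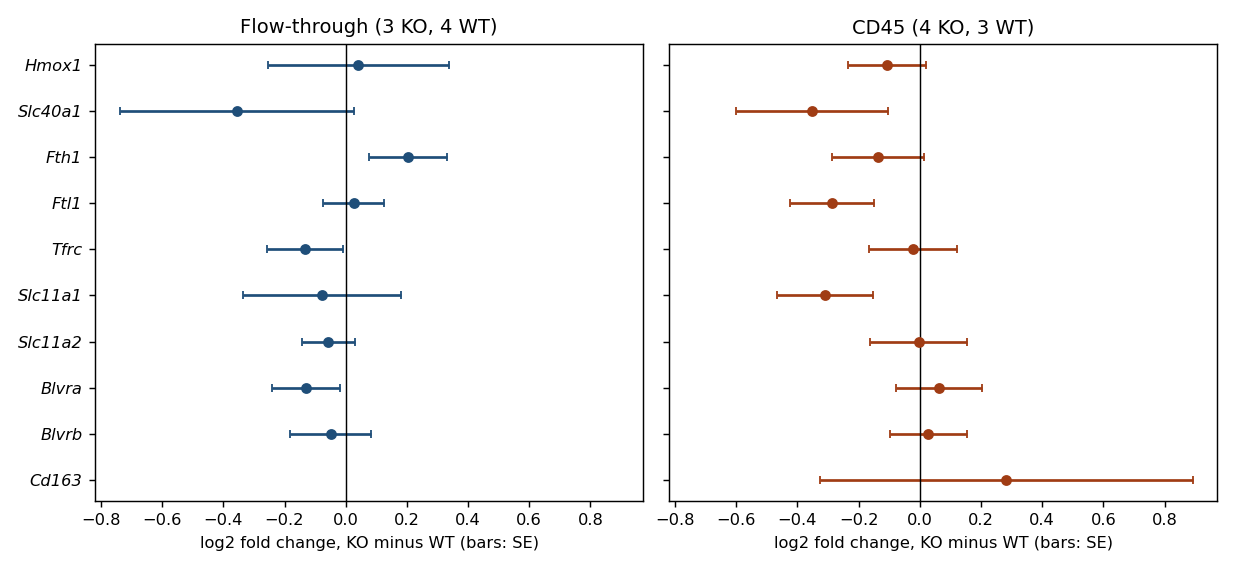
Log2 fold change (KO minus WT) of each gene in the flow-through and in CD45, with bars for the SE. Cd163 has no flow-through value because its counts were too low. The values lie between -0.35 and 0.28, and the CD45 panel is a description of the contrast on which the genes were chosen.

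Genotype values of the other pathway genes in CD45 are likewise given with no test, and they ran from -0.65 to 0.74 on the log2 scale over 84 genes. A range widens with the number of genes, so this one cannot be set against that of the 10 members. At the ends of their lists were Chac1, a glutathione-degrading enzyme (-0.65, SE 0.27), Cubn, an endocytic receptor (-0.59, SE 0.27), Spic (0.51, SE 0.28) and Alox15, a lipoxygenase (0.74, SE 0.42), all under 10 CPM on average in both genotypes. Larger values were not limited to scarce genes. Ptgs2, the inducible cyclooxygenase, named after its values were seen, averaged 739.6 CPM ± 110.7 (SD, n = 4) in KO against 498.5 CPM ± 146.8 (SD, n = 3) in the WT samples, or 0.54 on the log2 scale (SE 0.20), and its KO range of 583.9 to 840.2 CPM overlapped its WT range of 332.2 to 610.3 CPM.

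The genes whose pattern over the 14 libraries was most like that of a member were found by the root mean square difference of centred log2 CPM among 13987 genes. For Hmox1 these were Id2 (0.21), Tnfrsf1a (0.22) and Pqlc2 (0.22). For Slc40a1 they were Acap1 (0.35), Prkch (0.36) and Mrgpra2a (0.39). For Fth1 they were Adprh (0.11), Slc2a1 (0.12) and Itpr2 (0.12), and for Tfrc Epm2aip1 (0.09), Nadk2 (0.10) and Mmgt1 (0.12). The difference between fractions dominates this measure, so it describes genes with a like contrast between fractions.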

How the data were processed

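RNA was prepared with a stranded mRNA kit, per the labels' protocols. Per the submitters' processing notes, the tools were Trim Galore, FastQC and STAR 2.7.9a, with GRCm38 as the build. The authors deposited whole-number counts per gene in 1 table per fraction. How reads were counted, and whether by strand, is not given in the sources used here, so reads of overlapping genes may not be told apart. GENCODE M21 names, positions and lengths were matched to 33130 of 33223 genes.

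The quasi-likelihood test of edgeR 4.0.16 in R 4.3.3 was run on the counts with TMM scaling, robust estimation and filterByExpr (minimum count 10, total 15), with Benjamini-Hochberg adjustment over all genes tested and a threshold of 0.05. Fractions were compared over 14 libraries with 1 mean per group, and genotypes within a fraction. DESeq2 1.42.0 was an alternative. The edgeR script was tested on simulated data. The pathway genes named are the highest and lowest fold change of each list that reach a mean log2 CPM of 1. Members and lists were chosen with earlier results of these data known. Replicate numbers follow accession order and pair nothing. No label ties a library to an animal, so a p-value measures only the spread between libraries, part of which may be technical.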

Additional observations from a re-analysis of the deposited data

Results flagged for a closer look

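The library labelled flow-through WT replicate 5, which stands in the CD45 table and entered no comparison, was above every flow-through WT library for 8 members. It held 1001 CPM of Hmox1, 83.7 CPM of Slc40a1, 7904 CPM of Fth1, 4709 CPM of Ftl1, 407.0 CPM of Slc11a1, 34.8 CPM of Blvra, 22.9 CPM of Blvrb and 35.04 CPM of Cd163. Each of these values lies within the range of the 7 CD45 libraries, and its ratio of Fth1 to Ftl1 level was 1.75, against 7.74 to 11.1 in the flow-through.

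Cd163 was flagged in 1 flow-through WT library, replicate 2, at 0.0 CPM, where the other 3 held 1 count each. A difference of 1 count lies within counting error, so nothing is read from this flag. It was the single flag raised in 22 groups tested, and chance flags about 1 in 20 groups.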

How the results depend on the processing

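Between fractions, Slc11a2 was the exception among the members: its log2 fold change was -0.19 with library totals, an alternative chosen after seeing the data, and 0.08 with upper-quartile scaling. The other 9 members kept their direction and their call under all 21 alternatives. No member was called between genotypes in the flow-through under any of 14 alternatives. The number of all genes called there was less stable than the members: 260 genes became 436 with DESeq2, 629 with no filter on low counts, 30 with a joint fit of both fractions, 0 with the doubtful library entered as labelled, and 134 to 287 when 1 library was left out. In CD45 DESeq2 called 9 genes, and leaving out 1 library gave 0 to 1. The causes were not tested. The CD45 WT log2 ratio of Fth1 to Ftl1 level was -0.63 and the flow-through WT ratio 1.70 with all annotated exons (chosen after seeing the data), since the length assigned to Fth1 is then longer. The genotype difference in that ratio in the flow-through was 0.09 to 0.24 when 1 library was left out and 0.64 with the doubtful library as labelled, never with an exact permutation p under 0.2. No paired analysis was possible because replicate numbers were given in accession order and pair nothing. Depth limits Cd163 and Slc40a1 in the flow-through, where each library held few counts.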
